A study of Mus musculus with 15 samples.

Results

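The dystrophin glycoprotein complex joins the actin cytoskeleton beneath the muscle fibre membrane to the basal lamina outside it. The genes described here were chosen by name as its core: Dmd (dystrophin), Utrn (utrophin), Dag1 (dystroglycan), Sgca, Sgcb and Sgcd (α-, β- and δ-sarcoglycan), Sspn (sarcospan) and Dtna (α-dystrobrevin). They are 8 of the 55450 genes in the count table, and all 8 were among the 16920 genes with enough counts to be tested. The rule that picked them used their names and no measured value, although earlier results of these data were known.

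Dystrophin is a long rod that binds actin at its amino-terminal end and dystroglycan near its carboxy-terminal end. Dystroglycan is made as 1 precursor and cut into an outer subunit, which binds laminin through sugar chains, and a subunit that spans the membrane. The sarcoglycans and sarcospan form a subcomplex beside it, and dystrobrevin binds dystrophin inside the fibre and recruits the syntrophins. Utrophin is the autosomal relative of dystrophin, which in adult muscle is concentrated at the neuromuscular and myotendinous junctions. Loss of dystrophin or of a sarcoglycan causes muscular dystrophy, in which lengthening contractions tear the membrane, and downhill running loads the limb muscles with such contractions.

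RNA sequencing was performed on the gastrocnemius, a mixed calf muscle, of 15 female C57BL/6JN mice that were over 17 months old. Mice with 1 positive frailty marker at most formed the Low group (robust in the sample labels) and mice with 2 or more formed the High group (frail). Run mice completed 2 bouts on a treadmill with a 22° decline at 13 m/min and their muscle was taken 24 h after the last bout, while Control mice stayed sedentary in their cages. There were 4 Low Control mice (D8, D9, D11 and D98), 4 Low Run mice (D57, D61, D66 and D68), 3 High Control mice (D23, D25 and D67) and 4 High Run mice (D49, D52, D53 and D62).

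The total per library ranged from 19395125 to 30699216 counts. All 6 markers of the skeletal muscle fibre were detected in every mouse, at a summed level of 107633 to 176419 CPM (counts scaled to a common library size, with a correction for library composition). On the first principal component of all tested genes, which held 27.9% of the variance, the libraries of D9 (Low Control, score -90.3) and D62 (High Run, score -58.1) stood apart from the other 13, which lay between -19.7 and 27.8. Long transcripts as a class also differed between libraries. The median level of the 1373 genes with over 10000 exonic bases, relative to that of the 3966 genes with under 2000, was highest in D9 (0.41 on the log2 scale, each gene centred on its mean over the 15 mice). It was lowest in D57 (-0.40), D68 (-0.40) and D53 (-0.46). This measure was 0.09 to 0.41 in Low Control mice and -0.40 to 0.07 in Low Run mice, without overlap, and it is given below beside the members it touches.

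Dmd lies on chromosome X (82948870 to 85206141, plus strand, GRCm38) and its exons cover 23801 bases, the most of the 8 genes. Utrn lies on chromosome 10 (12382188 to 12869365, minus strand, 17108 exonic bases) and Dag1 on chromosome 9 (108204634 to 108263958, minus strand, 6357 exonic bases). Sgca has the fewest exonic bases, 1735, on chromosome 11 (94962791 to 94976327, minus strand). Sgcd is on the same chromosome (46896253 to 47988969, minus strand, 8257 exonic bases), Sgcb on chromosome 5 (73632749 to 73647790, minus strand, 4052 exonic bases) and Sspn on chromosome 6 (145931641 to 145965223, plus strand, 4996 exonic bases). The exons of Dtna cover 16930 bases. All 8 are protein-coding.

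The 250 bases before the transcript start are shown for Dmd and Dag1, which varied together between mice of a group, and for Sgca, the most abundant member per length. For Dmd this is the start of the full-length transcript. They are RefSeq sequences on GRCm38.p6, written 5′ to 3′ along the gene, and capitals mark the letters CANNTG (an E-box, the motif bound by the myogenic helix-loop-helix factors) and GGGCGG (a GC box) on either strand.
Dmd, chrX:82948620-82948869, plus strand: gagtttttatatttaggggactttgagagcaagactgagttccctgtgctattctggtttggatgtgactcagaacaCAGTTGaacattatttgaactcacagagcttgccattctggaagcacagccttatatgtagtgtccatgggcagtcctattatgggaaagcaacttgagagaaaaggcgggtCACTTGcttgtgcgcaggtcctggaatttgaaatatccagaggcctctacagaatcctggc
Dag1, chr9:108263959-108264208, minus strand: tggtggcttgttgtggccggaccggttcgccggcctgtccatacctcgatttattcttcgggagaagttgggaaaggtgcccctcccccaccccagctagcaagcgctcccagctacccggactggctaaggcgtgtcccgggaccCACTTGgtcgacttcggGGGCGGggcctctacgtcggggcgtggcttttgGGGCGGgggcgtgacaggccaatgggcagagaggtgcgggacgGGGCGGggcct
Sgca, chr11:94976328-94976577, minus strand: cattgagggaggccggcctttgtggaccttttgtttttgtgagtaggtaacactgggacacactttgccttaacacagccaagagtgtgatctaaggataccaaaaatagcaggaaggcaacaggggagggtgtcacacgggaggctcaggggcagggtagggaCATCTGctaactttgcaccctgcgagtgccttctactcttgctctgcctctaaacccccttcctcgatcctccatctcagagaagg

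The Dmd window held 2 E-box matches, whose first bases lie 173 and 61 bases before the start, and no GC box. The Dag1 window held 1 E-box match 104 bases before the start and 3 GC boxes 87, 54 and 11 bases before it, and 67.6% of its bases were G or C, against 45.2% for Dmd. The Sgca window held 1 E-box match 86 bases before the start and no GC box, with 52.8% G or C. Neither Dmd, Dag1 nor Sgca held the letters TTCCGG (the N-box, both strands searched). These letters are common: 66.2% of the 32851 RefSeq mouse promoter windows of this length held CANNTG, 32.7% held GGGCGG and 12% held TTCCGG. RefSeq also lists an internal Dmd start, whose window (not shown) held 0 E-boxes and 3 GC boxes with 60% G or C. No measurement of promoter activity was made in these mice.

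Levels between genes were compared per length, as RPKM, which is the CPM divided by the exonic length in kilobases. Sgca had the highest level of the 8, 122 ± 14.2 RPKM (SD, n = 15 mice). Dag1 followed with 46.2 ± 13.4 RPKM, Sgcb with 31.5 ± 3.65 RPKM and Sspn with 14.9 ± 3.28 RPKM. Of the 5 genes for transmembrane proteins, 4 thus held the highest places.

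Dtna had 7.10 ± 1.23 RPKM and Dmd 5.87 ± 1.33 RPKM. Utrn had 1.91 ± 0.268 RPKM and Sgcd, the third sarcoglycan measured here, 0.797 ± 0.224 RPKM. The lowest count behind any of these values was 89 reads, for Sgcd, and the highest 13031, for Dag1.

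In this order 4 steps were clear of the spread between mice: Sgca over Dag1 (2.65 times the mean), Sgcb over Sspn (2.11 times), Dmd over Utrn (3.07 times) and Utrn over Sgcd (2.40 times) held in all 15 mice without overlap of the ranges. Dag1 exceeded Sgcb, and Sspn exceeded Dtna, within each of the 15 mice, though their ranges over mice overlapped. Dtna and Dmd were not separated by their spread, since Dtna was the higher in 13 of 15 mice. With the longest transcript as the length, Dtna moved above Sspn in 12 of 15 mice. Sgca and Sgcb, partners in 1 tetramer, thus differed in level 3.26 to 4.57 times in Low Control mice, and the ratio spanned 3.29 to 5.50 over the mice of the other 3 groups.

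**Figure D1:**
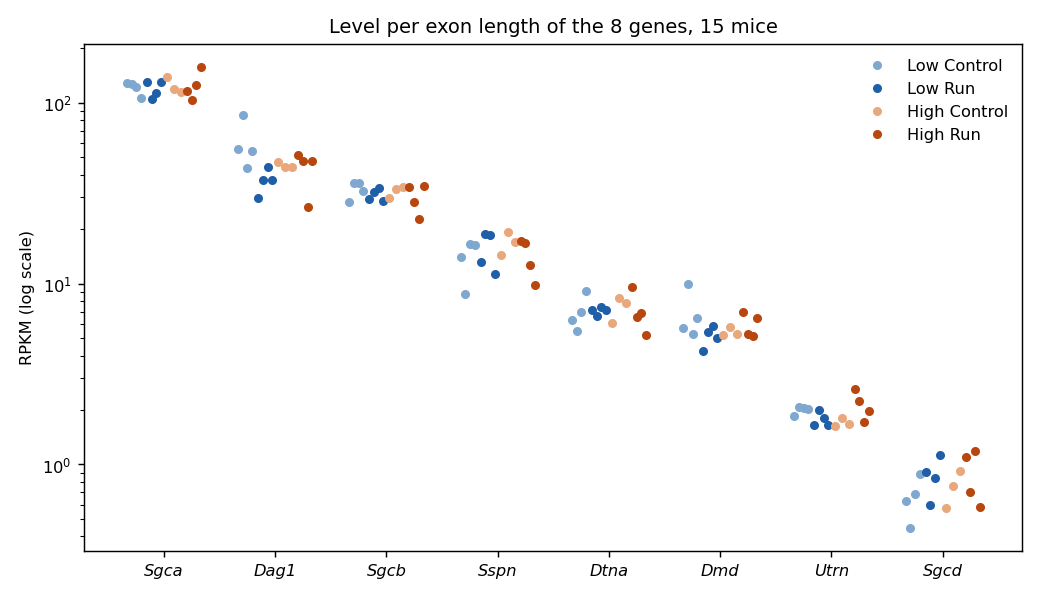
Level of each gene in RPKM (log axis) in 15 mice, coloured by group. The genes run from Sgca (mean 122 RPKM) down to Sgcd (0.797 RPKM), and the 4 groups overlap at every gene except Utrn, where High Control lies below Low Control.

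Reads of a gene that overlaps another on the same strand could be left out by the counting. Of the genes that overlap a member on the same strand, 1 had enough counts to be tested, the pseudogene Gm14769 inside Dmd. Utrn and Dmd are related in sequence, and only uniquely aligned pairs were counted.

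The first comparison asked how the muscle of Low mice differed 24 h after downhill running. None of the 8 genes was called by edgeR's quasi-likelihood test at an FDR of 0.1, where 0% of the 16920 genes were (DESeq2 called 9 genes and voom with quality weights 0). At an unadjusted p under 0.05, 2 of 8 members had lower values in Low Run mice, Dag1 and Dmd, and 0 had higher ones, against 13.4% of all genes in either direction. The median log2 fold change of the 8 was -0.06, against 0.02 over all genes tested. No member separated the groups without overlap, as 6.93% of all genes did.

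Dag1, the laminin receptor of the complex, gave the largest difference of the 8. Its level was 351 CPM in D8, 539 in D9, 276 in D11 and 343 in D98, and after running 188 in D57, 238 in D61, 279 in D66 and 239 in D68. D66 exceeded the lowest control, so the groups overlapped by 1 mouse, and D9 stood far above its group. The means were 377 ± 113 CPM in Low Control and 236 ± 37.3 CPM in Low Run (SD, n = 4 each). The ratio was 0.625, a log2 fold change of -0.68 (SE 0.22, unadjusted p = 0.0069, adjusted p = 0.36 in edgeR's quasi-likelihood test). Without D9 it was -0.46 (unadjusted p = 0.035), with an offset for transcript length and GC content -0.61 (unadjusted p = 0.00742), and with voom's quality weights -0.39 (unadjusted p = 0.020). The unadjusted p stayed under 0.05 in all 16 alternatives, the lowest adjusted p among them being 0.18.

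Dmd was measured at 134 CPM in D8, 238 in D9, 126 in D11 and 154 in D98, and after running at 101 in D57, 128 in D61, 138 in D66 and 120 in D68. The high control was again D9, and the other 3 control mice lay close to the run mice. The means were 163 ± 51.2 CPM and 122 ± 15.9 CPM (SD, n = 4 each). The log2 fold change was -0.42 (SE 0.19, unadjusted p = 0.038, adjusted p = 0.36 in edgeR's quasi-likelihood test). This value rested on D9: without that mouse the log2 fold change was -0.19 (unadjusted p = 0.21). With the length and GC offset it was -0.23 (unadjusted p = 0.13). Without D57 the unadjusted p was 0.11 and without D68 it was 0.0631. Without D9, the count of members at an unadjusted p under 0.05 was 1 of 8 (Dag1), where 5.03% of all genes passed.

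The level of Dag1 was also set against that of Dmd. The ratio of Dag1 to Dmd, both in RPKM, was 8.21 to 9.77 in Low Control mice and 6.96 to 7.56 in Low Run mice. These ranges did not overlap, as in 6.93% of all single genes, and the share among ratios of genes was not computed. D9 lay within the ratio of its group although it was high for both genes. The level of long relative to short transcripts also separated these groups, and its part in the ratio was not tested. In High mice the ratio was 7.58 to 8.98 in Control and 5.18 to 9.04 in Run, which overlapped.

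Utrn, which can replace dystrophin at the membrane in part, had 31.8 CPM in D8, 35.4 in D9, 35 in D11 and 34.4 in D98, against 28.1 in D57, 34.1 in D61, 30.7 in D66 and 28.2 in D68 after running. Its spread among control mice was small and D9 did not stand out. The log2 fold change was -0.17 (SE 0.13, unadjusted p = 0.20) and became 0.0070 with the length and GC offset.

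The sarcoglycan and sarcospan genes gave smaller or more scattered differences. Sgca, whose protein is specific to striated muscle, ranged from 184 to 224 CPM in Low Control and from 182 to 225 CPM in Low Run, with a log2 fold change of -0.01 (SE 0.14). Sgcb ranged from 114 to 146 CPM and from 115 to 137 CPM (-0.10, SE 0.14). Both genes covered nearly the same range before and after running. Sgcd ran the other way in its mean, from 3.68 to 7.33 CPM in Low Control and from 4.94 to 9.32 CPM in Low Run (0.39, SE 0.27, unadjusted p = 0.17). Sspn ranged from 43.7 CPM in D9 to 82.7 CPM and from 56.6 to 93.9 CPM (0.15, SE 0.23). Dtna ranged from 92.0 to 154 CPM and from 112 to 126 CPM (0.03, SE 0.19). In D9, Sgcd, Sspn and Dtna were the lowest of the 4 control mice, while Dmd and Dag1 were the highest.

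**Figure D2:**
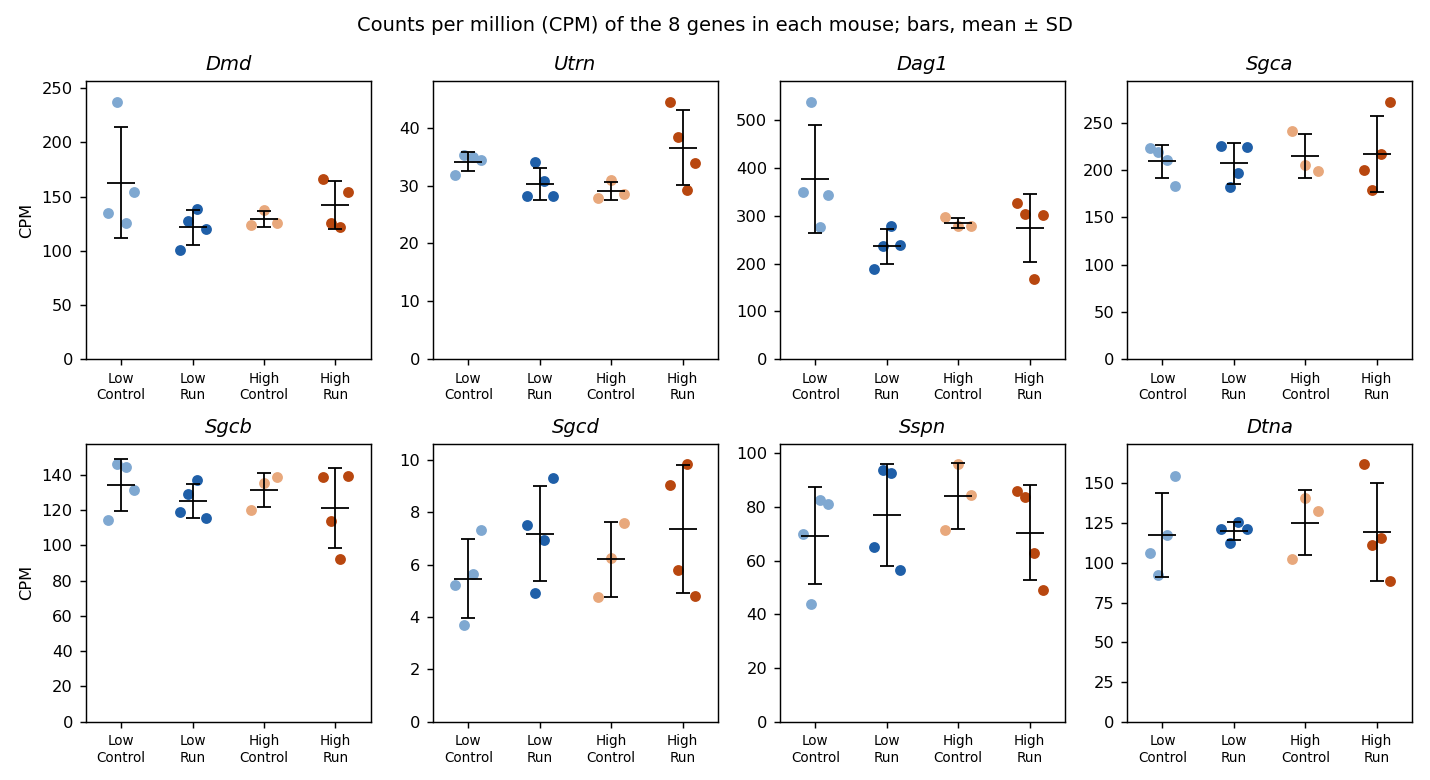
CPM (linear axis from 0) of each gene in each mouse, by group, with the mean and SD as black bars. In Dmd and Dag1 a single Low Control mouse, D9, lies far above its group, and Utrn is highest in a High Run mouse, D49 (44.5 CPM).

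Other measures moved with these differences. Within groups, after the group means were taken out, Dag1 correlated with the level of long relative to short transcripts (Pearson's r = 0.80, Spearman's rho = 0.78, 15 mice that share depth and preparation with that measure), as did Dmd (r = 0.67, rho = 0.77), Utrn (r = 0.89, rho = 0.85) and Sgcb (r = 0.73, rho = 0.74). Without D53 and D49, the 2 mice farthest from the median of that measure, r was 0.65 for Dag1, 0.64 for Dmd, 0.79 for Utrn and 0.48 for Sgcb. The summed level of 4 adipocyte markers was 72.8 to 87.7 CPM in Low Control and 38.7 to 57.2 CPM in Low Run, 2 of the 4 having lower values at an unadjusted p under 0.05 (13.4% of all genes in either direction). For 5 macrophage markers the sum was 75.6 to 138 CPM and 131 to 159 CPM, 1 of 5 having a higher value. No marker of either list was at 0 in any mouse. The part of these cell types in the differences was not tested, and in bulk muscle fewer cells of a type and less RNA per cell cannot be told apart.

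**Figure D3:**
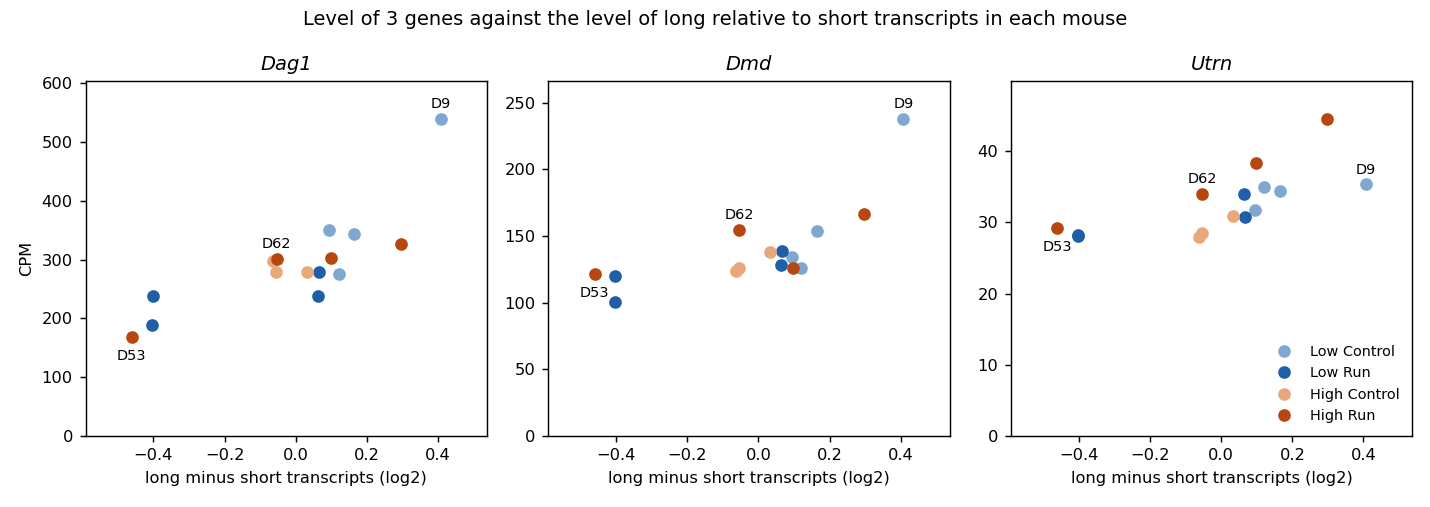
CPM of Dag1, Dmd and Utrn (linear axes from 0) against the median log2 level of genes with over 10000 exonic bases minus that of genes with under 2000, 1 point per mouse, coloured by group. D9 lies highest in Dag1 and Dmd and farthest right (0.41), D53 lies farthest left (-0.46), and the points of each gene climb from left to right.

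High mice were compared in the same way. No member passed an FDR of 0.1, which 0% of all genes did in edgeR (DESeq2 called 15 genes and voom with quality weights 45, no member among them). At an unadjusted p under 0.05, 1 of 8 members had a higher value after running, Utrn, and 0 had a lower one, against 5.18% of all genes in either direction. The median over the 8 was -0.02 on the log2 scale, against 0.05 over all genes. No member separated High Run from High Control without overlap, as 7.07% of all genes did.

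Utrn had 27.9 CPM in D23, 30.9 in D25 and 28.5 in D67, and after running 44.5 in D49, 38.4 in D52, 29.2 in D53 and 34.0 in D62. Of the run mice, 3 of 4 exceeded every High Control mouse, and D53 lay among the controls. The means were 29.1 ± 1.6 CPM (SD, n = 3) and 36.5 ± 6.51 CPM (SD, n = 4). The ratio was 1.26, a log2 fold change of 0.33 (SE 0.14, unadjusted p = 0.034, adjusted p = 0.96 in edgeR's quasi-likelihood test). The value was 0.21 without D49 (unadjusted p = 0.14) and 0.42 without D53 (unadjusted p = 0.00599). The unadjusted p also rose above 0.05 without D23 (0.098), D67 (0.086) or D52 (0.078). This left 0 of 8 members under it, against 3.37% to 4.99% of all genes. With the length and GC offset the log2 fold change was 0.23 (unadjusted p = 0.033).

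Several marker lists held genes with higher values in High Run mice, against 5.18% of all genes in either direction. The 3 denervation markers (Chrng, Ncam1 and Myog) all had higher values at an unadjusted p under 0.05, with a sum of 15.1 to 21.2 CPM in High Control and 21.5 to 62.7 CPM in High Run. For the 5 postsynaptic markers, 1 of 5 was higher by that rule, with a sum of 55.7 to 69.5 CPM and 68.3 to 92.4 CPM. For the 5 macrophage markers, 2 of 5 were higher, with a sum of 67.7 to 106 CPM and 82.4 to 199 CPM. The 3 erythroid markers were all higher by that rule, with a sum of 287 to 457 CPM and 355 to 3549 CPM, as were 3 of 5 slow fibre markers, with 1209 to 1955 CPM and 1464 to 3541 CPM. Of 5 Schwann cell markers 1 was higher, with 130 to 145 CPM and 95.0 to 295 CPM. Apart from the denervation sum, these sums overlapped between the groups. The sum of the 6 skeletal muscle fibre markers was lower, with 147786 to 171763 CPM in High Control and 107633 to 147429 CPM in High Run, without overlap. Of these 6 markers, 1 had a lower value by that rule and 0 had higher ones. Of all single genes 7.07% did not overlap, and the share among sums was not computed. None of these markers was at 0 in a mouse, and their part in the Utrn difference was not tested.

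Dag1 had 297, 279 and 279 CPM in High Control mice, and 326 in D49, 304 in D52, 168 in D53 and 301 in D62 after running. D53 alone lay far below, and without it the log2 fold change of -0.05 (SE 0.23) became 0.12. Dmd ranged from 124 to 138 CPM in High Control and from 122 to 167 CPM in High Run (0.14, SE 0.20). The difference between these values and those of Low mice is tested by the interaction.

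The other 5 members overlapped widely. Sgca (0.02, SE 0.15) reached 273 CPM in D62 and Sgcb (-0.12, SE 0.15) had its lowest level of all mice, 92.3 CPM, in D53. Sgcd (0.25, SE 0.29) ranged from 4.75 to 7.61 CPM and from 4.79 to 9.84 CPM. Sspn (-0.26, SE 0.25) and Dtna (-0.07, SE 0.20) were lowest in D62, with 49 and 88.2 CPM. D62, which stood apart over all genes, was thus the highest or lowest of its group in all 5 of these genes.

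The Frailty × Run interaction tests whether the difference after running was itself different between High and Low mice. In edgeR 0% of all genes passed an FDR of 0.1, and with voom's quality weights and with DESeq2 the count was 0 as well. At an unadjusted p under 0.05 there was 1 of 8 members, Utrn, against 7.93% of all genes. Its log2 difference was 0.50 (SE 0.19, unadjusted p = 0.019, adjusted p = 0.60 in edgeR's quasi-likelihood test), since the mean was lower after running in Low mice and higher in High mice. With the length and GC offset it was 0.23 (unadjusted p = 0.11). Leaving out single mice gave 0.39 (without D49) to 0.59 (without D53). In the same interaction 3 of 3 erythroid markers (median 3.31), 3 of 5 Schwann cell markers (median 0.99) and 1 of 5 postsynaptic markers (median 0.18) had positive values at an unadjusted p under 0.05, and their part in the Utrn value was not tested.

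Dmd (0.56, SE 0.27, unadjusted p = 0.058) and Dag1 (0.63, SE 0.32, unadjusted p = 0.069) had interaction values as large as that of Utrn with a wider error. Without D9 they were 0.32 (unadjusted p = 0.14) and 0.41 (unadjusted p = 0.17). With the length and GC offset they were 0.30 (unadjusted p = 0.17) and 0.49 (unadjusted p = 0.11). Without D53 they were 0.63 (unadjusted p = 0.042) and 0.80 (unadjusted p = 0.010), and without D11 they were 0.67 and 0.75. In either case 3 of 8 members lay under 0.05, where 14.1% of all genes did without D53 and 9.83% without D11. With Utrn and Sgca, 4 of 8 members had positive interaction values, as did 53.1% of all genes. For Dmd and Dag1 the unadjusted p moved across 0.05 with single mice. The other 5 members had values from -0.41 (Sspn, SE 0.34) to 0.03 (Sgca, SE 0.21).

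**Figure D4:**
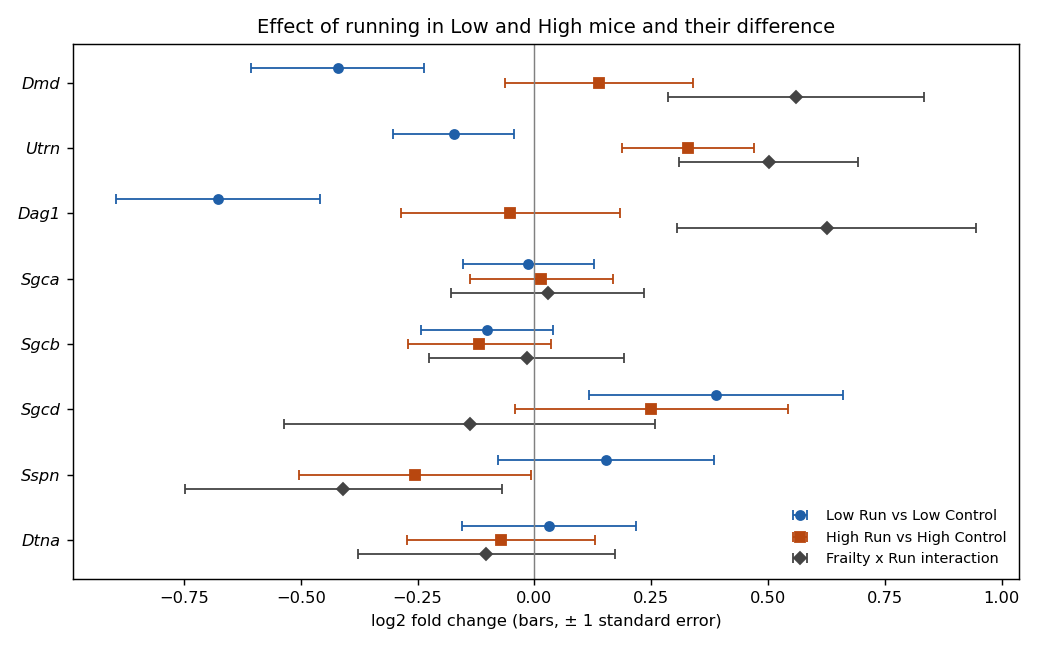
Log2 fold change ± 1 standard error of each gene for running in Low mice, running in High mice and the Frailty × Run interaction. Dag1 (-0.68) and Dmd (-0.42) lie left of 0 in Low mice, Utrn (0.33) lies right of 0 in High mice, and the interaction values of Dmd (0.56), Utrn (0.50) and Dag1 (0.63) lie right of 0.

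The sedentary groups were compared to see whether the complex differed with frailty before any running. The same Low Control mice enter here and in the Low comparison. No member passed an FDR of 0.1, as 0% of all genes did, and 0 of 8 had an unadjusted p under 0.05, against 5.86% of all genes. Utrn was 27.9 to 30.9 CPM in High Control mice and 31.8 to 35.4 CPM in Low Control mice, without overlap, as was seen in 10.4% of all genes. Its log2 fold change was -0.23 (SE 0.14, unadjusted p = 0.12), and -0.09 with the length and GC offset. Dag1 (-0.41, SE 0.24) and Dmd (-0.34, SE 0.20) were lower in the mean of High Control mice, and -0.19 and -0.10 without D9. The median over the 8 genes was 0.0050, against -0.02 over all genes.

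After running, High and Low mice were compared as well. No member passed an FDR of 0.1 (0% of all genes), 0 of 8 had an unadjusted p under 0.05 (2.51% of all genes), and none separated the groups without overlap (1.5% of all genes). The log2 fold change of High Run against Low Run was 0.27 for Utrn (SE 0.13, unadjusted p = 0.054), 0.22 for Dmd (SE 0.19) and 0.22 for Dag1 (SE 0.22). Without D53 the value for Utrn was 0.36 (unadjusted p = 0.00950) and without D61 it was 0.33 (unadjusted p = 0.035). The remaining members lay between -0.13 (Sspn) and 0.07 (Sgca).

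Partners of the core were followed in 4 lists. Of 16 other genes of the complex and its inner scaffold, 14 were tested, while Sgcz and Sntg1 had at most 4 and 3 counts in a mouse. In Low mice 2 of 14 had lower values after running at an unadjusted p under 0.05 and 0 had higher ones, with a median of -0.13. The share among all genes was 13.4%, so this count is near the background. Without D9 and D62 together the count was 4 of 14, where 7.33% of all genes passed. The first was Ank3, an ankyrin that holds dystrophin and dystroglycan at the costamere, with 221 ± 66.4 CPM in Low Control and 131 ± 19.6 CPM in Low Run (-0.76, SE 0.24, unadjusted p = 0.0068). The second was Nos1, the neuronal nitric oxide synthase that docks on syntrophin and dystrophin, with 136 ± 5.25 CPM and 83.5 ± 22.3 CPM (-0.70, SE 0.23, unadjusted p = 0.0069). Neither overlapped between the groups, as in 6.93% of all genes, and both had an adjusted p of 0.36 in edgeR's quasi-likelihood test.

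Ank3 was also lower in High Control than in Low Control mice (134 ± 13.4 CPM, -0.72, unadjusted p = 0.016), with an unadjusted p of up to 0.059 when D9 or D25 was left out. Its interaction value was 1.14 (SE 0.36, unadjusted p = 0.0057, adjusted p = 0.60 in edgeR's quasi-likelihood test). In High mice 0 of the 14 had an unadjusted p under 0.05 (5.18% of all genes), and the median was -0.03. The count was 1 of 14 without D49, D52, D53 or D67, where 3.37% to 6.68% of all genes passed. After running 0 of 14 differed by that rule between High and Low mice (2.51% of all genes).

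The ligands of dystroglycan are the laminin chains, agrin and perlecan, which make up the basal lamina around the fibre. In Low mice 3 of 8 had lower values after running at an unadjusted p under 0.05 (13.4% of all genes), 0 had higher ones, and the median was -0.36. The count was 1 of 8 (Lama2) without D9 (5.03% of all genes), without D57 (7.44%) or without D68 (9.93%). With voom's quality weights it was 1 of 8 (Lama5), where 8.19% of all genes passed. Lama2, the laminin chain whose loss causes a congenital muscular dystrophy, was 48.3 ± 15.6 CPM in Low Control and 31.5 ± 3.70 CPM in Low Run (-0.61, SE 0.21, unadjusted p = 0.011). Lamc1 was 103 ± 20.9 CPM and 73.3 ± 13.7 CPM without overlap, as in 6.93% of all genes (-0.50, SE 0.20, unadjusted p = 0.026). The third was Lama5 (-0.67, SE 0.27, unadjusted p = 0.026), which also had the lowest p of the list in the interaction (0.87, SE 0.40, unadjusted p = 0.046), where 12 of the 22 alternatives took that p above 0.05. In High mice 0 of 8 had an unadjusted p under 0.05 (5.18% of all genes) and the median was 0.01, against 0.05 over all genes. Between the sedentary groups 1 of 8 was lower in High mice, against 5.86% of all genes in either direction. This was Lamc1 with 73.5 ± 4.46 CPM (-0.49, unadjusted p = 0.040, above 0.05 without D9, D23, D25 or D67). Between the run groups 0 of 8 differed by that rule (2.51% of all genes).

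Dystroglycan binds laminin only after a chain of enzymes has built its sugar. Of 18 genes of this pathway 17 were tested, B4gat1 having at most 6 counts in a mouse. In Low mice higher values after running were found in 2 of 17, Dpm3 (0.49, SE 0.22, unadjusted p = 0.039) and Gmppb (0.54, SE 0.25, unadjusted p = 0.045), which supply mannose for the first sugar. Among all 16920 genes 1002 had higher values by that rule, and 13.4% differed in either direction. Leaving out D8, D9, D66 or D68 took the unadjusted p of each above 0.05. The median was 0.14.

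In High mice 0 of 17 had a higher value at an unadjusted p under 0.05, as 555 of all 16920 genes did. The median was -0.09, against 0.05 over all genes. Pomgnt2, which adds the second sugar of the laminin-binding chain, was 20.2 ± 1.35 CPM in High Control and 15.6 ± 2.09 CPM in High Run. These groups did not overlap, as in 7.07% of all genes (-0.37, SE 0.15, unadjusted p = 0.023, above 0.05 without D62 or D67). Pomgnt2 had an interaction value of -0.64 (SE 0.20, unadjusted p = 0.0062) and was lower in High Run than in Low Run mice (-0.36, SE 0.14, unadjusted p = 0.019, above 0.05 without D62). Dolk was higher in High Control than in Low Control mice (0.33, SE 0.14, unadjusted p = 0.028, above 0.05 without D9, D25 or D67). The lowest adjusted p in these 3 lists was 0.358 in edgeR's quasi-likelihood test.

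The integrin linkage, α7β1 integrin with talin, vinculin and the integrin-linked kinase group, is the other main bridge from cytoskeleton to laminin. Of its 9 genes, all tested, 0 had an unadjusted p under 0.05 in any of the 5 comparisons, against 2.51% to 13.4% of all genes. In High mice 2 of 9 did with voom's quality weights (13.6% of all genes) and 2 of 9 without D53 (6.17%). In the interaction 2 of 9 did with voom's quality weights (10.4% of all genes) and 1 of 9 without D53 (14.1%) or without D61 (8.2%). Between the sedentary groups 1 of 9 did without D23 (4.73% of all genes), and between the run groups 1 of 9 without D53 (5.84%). The median was -0.03 in Low mice and 0.10 in High mice, where all 9 values were positive, as were 57.2% of all genes, whose median was 0.05.

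Variation between mice of the same group was used to see which members moved together, as a description over 28 pairs. Dmd and Dag1 were the closest pair (Pearson's r = 0.82, Spearman's rho = 0.80, 15 mice, log2 CPM after the group means were taken out), with r = 0.70 without D9 and D62. Sgcd and Dtna followed (r = 0.77, rho = 0.73, r = 0.61 without D9 and D62), and then Utrn and Sgcb (r = 0.70, rho = 0.59). The last value was 0.35 without D53 and D49, on which it rested, and 0.87 without D9 and D62.

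Sgca ran against several members: r was -0.78 with Sspn (rho = -0.74), -0.61 with Dtna (rho = -0.55) and -0.53 with Utrn (rho = -0.65). With Dmd it was 0.01 and with Dag1 -0.04. Without D9 and D62 the correlation of Sgca was -0.81 with Sspn, -0.46 with Dmd and -0.41 with Dag1. In the same 13 mice that of Sspn with Dmd changed from -0.29 to 0.59 and that of Dtna with Dmd from -0.10 to 0.66. Sspn and Utrn had r = 0.78 in those 13 mice. All pairs share the libraries' depth and base composition, and Sgca (r = -0.42, rho = -0.50) and Utrn (r = 0.89) had opposite signs against the level of long relative to short transcripts.

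**Figure D5:**
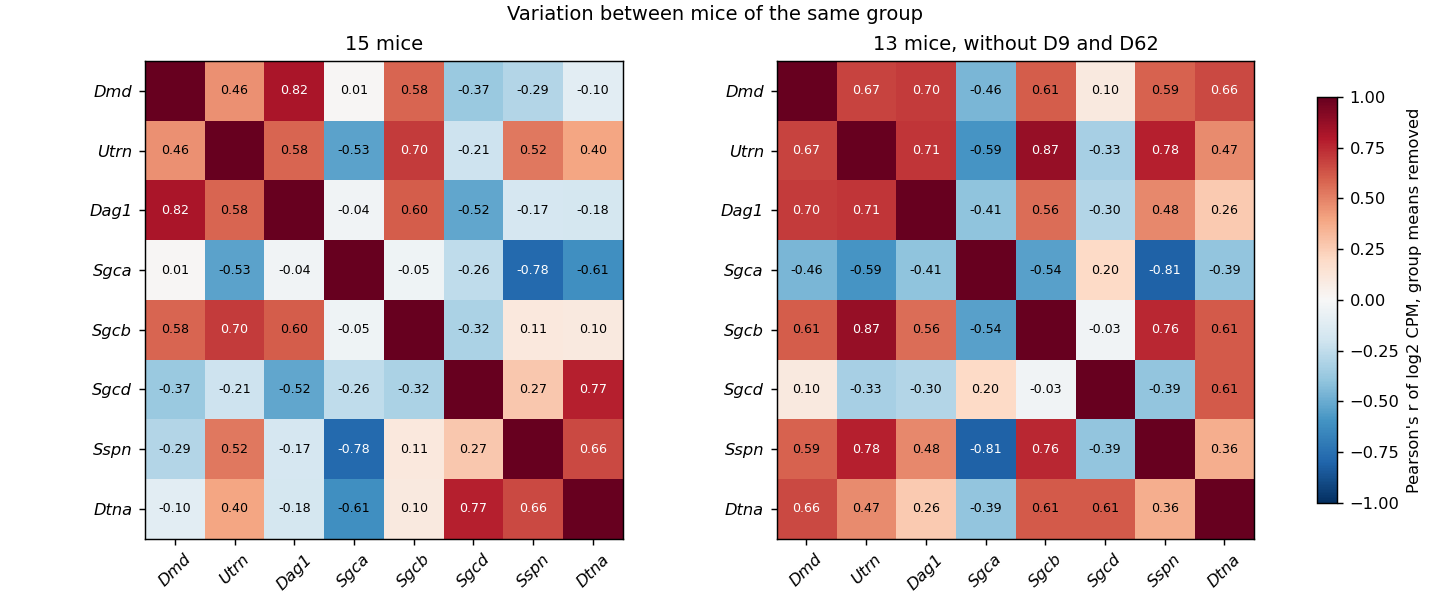
Pearson's r between members over mice of the same group (log2 CPM, group means removed), in 15 mice at left and in 13 mice without D9 and D62 at right. Dmd with Dag1 (0.82, 0.70) and Sgca with Sspn (-0.78, -0.81) keep their colour in both panels, while Sspn with Dmd (-0.29, 0.59) changes sign.

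Among all 16920 genes, those whose level followed a member most closely within groups were found by the same r over 15 mice. For Dmd they were Rabgap1 (0.97), Rbm26 (0.96) and 4932438A13Rik (0.96), and for Dag1 Ash1l (0.96), the pseudogene Gm14026 (0.96) and Zbtb39 (0.95). Utrn was followed by Gm49759, Gm8188 and Gm5182 (0.95, 0.95 and 0.94), of which the latter pair are processed pseudogenes. Sgcb was followed most closely by Musk (0.95), the receptor kinase of the neuromuscular junction, then by Gnl3l (0.94) and Ddx51 (0.93). Sspn had the closest followers, Dnmt1 (0.98), Pde7b (0.98) and Arsb (0.97). For Sgcd they were Popdc2 (0.92), Klhdc2 (0.92) and Pgk1 (0.91), for Dtna Ftx (0.93), Tmem56 (0.93) and Cd28 (0.92), and for Sgca 6230400D17Rik (0.93), 2310039H08Rik (0.92) and Gm34342 (0.91). No member was among the 3 closest followers of another.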

How the data were processed

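Powdered gastrocnemius of 15 mice was sequenced as polyA RNA. The authors aligned reads with STAR 2.7.9a to mm10 and deposited counts of uniquely aligned, same-strand proper pairs per gene (featureCounts, Ensembl annotation), whole numbers without normalization, leaving out mitochondrial genes. The methods and the submitters' processing notes name different Subread versions, the notes 2.0.3. A variance-stabilized table of the same counts was not used here. Replicates are separate mice, the labels give no batch, and frailty groups came from physical tests, body weight and a frailty index.

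The counts were tested in R 4.3.3 with edgeR 4.0.16 (filterByExpr, TMM, quasi-likelihood F-test, 4 group means over all 15 mice). P-values were adjusted by the Benjamini-Hochberg method over 16920 genes and called at an FDR of 0.1. The second rule, an unadjusted p under 0.05, is a description read against its share among all genes. The standard error is the fold change divided by the square root of F. CPM use TMM library sizes, RPKM the exon lengths of GENCODE M21, in which 55190 of 55450 genes have a symbol, and log2 CPM a prior count of 2. The test was checked on simulated counts with changes placed in the High Run mice. Alternatives were DESeq2 1.42.0, limma 3.58.1 (voom), other normalization and filters, an offset for length and GC content (loess), and leaving out mice.

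The text names the 8 members, up to 2 genes per partner list and comparison with the smallest unadjusted p under 0.05 (Lama5 in Low mice and Gmppb were added after their values were seen), and the 3 genes closest to each member. The members and lists were chosen with earlier results of these data known. Proteins were not analysed here. Some results of the glycosylation list are not reported here.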

Additional observations from a re-analysis of the deposited data

Results flagged for a closer look

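Dag1 in the High Run mouse D53 was 168 CPM, against 301 to 326 CPM in the other 3 mice of its group, a gap that passed Dixon's criterion for 4 samples. Such gaps were looked for in 24 groups of 4 values, of which chance gives about 1 in 20. D53 also had the lowest level of long relative to short transcripts of all 15 mice (-0.46 on the log2 scale).

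Utrn differed in its response to running between High and Low mice by 0.50 on the log2 scale (unadjusted p = 0.019), and this did not hold after adjustment over all genes (adjusted p = 0.60 in edgeR's quasi-likelihood test). It was higher after running than every High Control mouse in 3 of 4 High Run mice, and below every Low Control mouse in 3 of 4 Low Run mice. The cause of either result was not tested.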

How the results depend on the processing

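No paired analysis was possible because the labels give the groups no shared replicate numbers. Of 672 values of the 8 members under the alternatives, 599 kept their direction, 73 changed it and 0 crossed an FDR of 0.1. The cause of the changes was not tested. Mice D9 and D62 were left out together after the data had been seen. Depth limits Sgcd most (89 counts at the lowest).

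Genes called at an FDR of 0.1 were 0 in every comparison. In Low mice they became 9 with DESeq2 and 86 without a count filter, in High mice 15 with DESeq2, 19 without the filter and 45 with voom. Without the filter there were 4 in the interaction and 6 between the run groups. Members at an unadjusted p under 0.05 became 1 in Low mice with voom (8.19% of all genes) and with the length and GC offset (11.6%). They also became 1 with only the 2 groups compared (11.4%) and without D9 and D62 (7.33%). They were 1 to 2 when single mice were left out (5.03% to 17.2%). In High mice they became 0 without the filter (4.84% of all genes) and with only the 2 groups compared (4.91%). Over single mice they were 0 to 1 (3.37% to 6.68%). In the interaction they became 2 without the filter (7.31% of all genes) and 0 with the offset (7.33%). Over single mice they were 1 to 3 (4.66% to 14.1%). Between the sedentary groups they became 1 with voom (9.33% of all genes), and 0 to 2 over single mice (2.63% to 10.7%). Between the run groups they became 1 with voom (5.08%) and 1 without D9 and D62 (2.73%). Over single mice they were 0 to 1 there (1.82% to 5.84%).

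The log2 fold changes that changed direction in Low mice were Utrn, 0.0070 with the offset, Dtna, -0.035 with voom and -0.079 without D9 and D62, and Sspn, -0.022 without D9 and D62. In High mice they were Dag1, 0.046 with voom, Dtna, 0.042 without D9 and D62, and Sgca, -0.0042 with DESeq2, -0.0014 with the other normalization, -0.00023 without the filter, -0.14 with voom, -0.048 with the offset and -0.12 without D9 and D62. In the interaction they were Sgca (-0.11 with voom, -0.12 without D9 and D62), Sgcb (0.021 with the offset), Sgcd (0.18 without D9 and D62) and Dtna (0.0019 with voom, 0.12 without D9 and D62). Without D9 and D62, Sgcb (0.0064) and Dtna (-0.016) changed sign between the sedentary groups. Between the run groups they were Sgca (-0.056 with voom, -0.064 without D9 and D62), Sgcd (-0.013 with the offset), Sspn (0.0035 without D9 and D62) and Dtna (0.022 with voom, 0.11 without D9 and D62).

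Over single mice left out, the ranges that crossed 0 in Low mice were -0.071 to 0.033 for Sgca, -0.022 to 0.27 for Sspn and -0.079 to 0.19 for Dtna. In High mice they were -0.15 to 0.12 for Dag1, -0.12 to 0.11 for Sgca and -0.26 to 0.042 for Dtna. In the interaction they were -0.098 to 0.12 for Sgca, -0.088 to 0.094 for Sgcb, -0.31 to 0.031 for Sgcd and -0.29 to 0.020 for Dtna. Between the sedentary groups they were -0.051 to 0.095 for Sgca, -0.099 to 0.031 for Sgcb and -0.016 to 0.25 for Dtna. Between the run groups they were -0.064 to 0.15 for Sgca, -0.12 to 0.064 for Sgcb, -0.13 to 0.20 for Sgcd, -0.26 to 0.0033 for Sspn and -0.20 to 0.10 for Dtna.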
